A study of Bos taurus with 2 samples.

Results

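Pregnancy-associated glycoproteins (PAG) and trophoblast Kunitz domain proteins (TKDP) are 2 families of secreted proteins that the ruminant trophoblast, the outer cell layer that forms the placenta, produces. Their transcripts were examined in 1 pool of CDKN1C-siRNA-injected bovine (Bos taurus) IVF embryos, the siRNA pool, and 1 pool of sham-injected embryos, the sham pool. The set comprised 9 genes, PAG1, PAG2, PAG8, PAG11, PAG12, TKDP1, TKDP2, TKDP3 and TKDP4, chosen by symbol out of 21209 symbols in the FPKM values of both pools. Zygotes of the siRNA group received siRNA against CDKN1C, an imprinted cell-cycle inhibitor, and those of the sham group were pierced by the needle without siRNA, so the sham pool controls for puncture but not for the presence of small RNA. In the development experiments CDKN1C siRNA was used at 200 uM and blastocysts were collected on day 8 of culture, and neither is stated separately for the sequenced pools. With a single library per group no difference has a replicate check, no error or p-value is given, and every comparison is of these 2 pools. CDKN1C itself was 14.6 FPKM in the siRNA pool and 49.5 FPKM in the sham pool.

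PAG proteins belong to the aspartic proteinase family, in which pepsin is the best known enzyme, although several have lost catalytic activity. An ancient group, with PAG2, PAG8, PAG11 and PAG12 among its members, is expressed across the trophectoderm, whereas a modern group, with PAG1, is produced mainly by the binucleate trophoblast cells that appear at implantation. PAG1 protein in maternal blood serves as a pregnancy marker in cattle. TKDP proteins carry a domain related to Kunitz-type inhibitors of serine proteases, and ruminant conceptuses express them around the time of attachment to the uterus.

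On FPKM, a level scaled to transcript length, PAG2 was by far the highest member in both pools, PAG11 and TKDP1 were low, and the other 6 were below 0.23 FPKM or listed at 0. In the siRNA pool 3 of 9 members reached 1 FPKM and in the sham pool 2 of 9, against 36.7% and 37.5% of all symbols. PAG1 and TKDP4 were listed at 0 in both pools. An entry of 0 may be a failed estimate rather than a lack of transcript, and the FPKM values cannot tell these apart. Of 77 ribosomal protein symbols 2 were also at 0 in both pools, but whether those 2 are expressed in embryos was not checked.

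**Figure D1:**
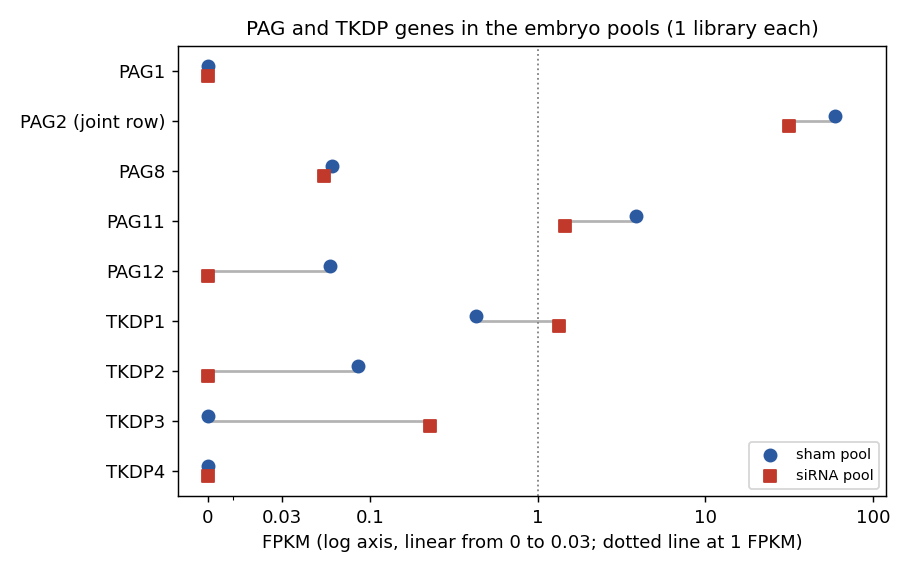
FPKM (horizontal, log axis, linear between 0 and 0.03) of the 9 PAG and TKDP genes in the sham pool (blue circles) and the CDKN1C siRNA pool (red squares), 1 library each, with grey lines joining the pools and a dotted line at 1 FPKM. PAG2 stands apart at 31.6 and 59.0 FPKM, PAG11 and TKDP1 lie around the dotted line, and the remaining 6 lie below 0.23 FPKM.

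PAG2, an ancient PAG, was 31.6 FPKM in the siRNA pool and 59.0 FPKM in the sham pool. Its level was thus 1.87-fold lower in the siRNA pool, and it was higher than 92.9% of all symbols in the siRNA pool and 94.5% in the sham pool. The value comes from a joint row with the symbols LOC519862 and PAG2, on chromosome 29 of bosTau7 from 39117691 to 39248852. In the RefSeq annotation of assembly ARS-UCD2.0, PAG2 is followed by PAG12 and then by LOC519862, a locus of biotype misc_RNA, and how much of the joint value belongs to PAG2 cannot be told apart. PAG12 has a row of its own with the same span, at 0 in the siRNA pool and 0.0575 FPKM in the sham pool. Members of the PAG family are close copies, so reads may have been divided among them, and single PAG values are uncertain for that reason.

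PAG11, another ancient member, was 1.45 FPKM in the siRNA pool and 3.88 FPKM in the sham pool, which is 2.67-fold lower. Its value is the sum of 2 rows on chromosome 29. The row from 40581127 to 40583685 was 1.36 FPKM in the siRNA pool against 3.56 FPKM in the sham pool, and the row from 40867365 to 40872429 was 0.0937 against 0.321 FPKM. Both rows were lower in the siRNA pool. They span 2559 and 5065 bases, while the RefSeq gene PAG11 of ARS-UCD2.0 spans 17662 bases. PAG2 was 21.7 times PAG11 in the siRNA pool and 15.2 times PAG11 in the sham pool, so the order of the PAG levels was the same in both.

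PAG8 and PAG12, the remaining ancient members, were at the edge of detection. PAG8, on chromosome 29 from 41188822 to 41199085, was 0.0532 FPKM in the siRNA pool and 0.0595 FPKM in the sham pool. Its ratio of 0.894 falls where sparsely covered genes gather: of 1079 rows between 0.005 and 0.1 FPKM in both pools, 139 had a log2 ratio between -0.2 and -0.1, and the next fullest interval of the same width held 55. A given number of fragments yields a fixed ratio of FPKM between 2 libraries, apart from the correction for sequence bias, so a peak of this kind is what rows with equal fragment numbers in both pools give. The PAG8 ratio lies inside this peak, which holds 12.9% of these rows. The fragment numbers themselves are unknown, and no difference between the pools is read from the PAG8 values.

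**Figure D2:**
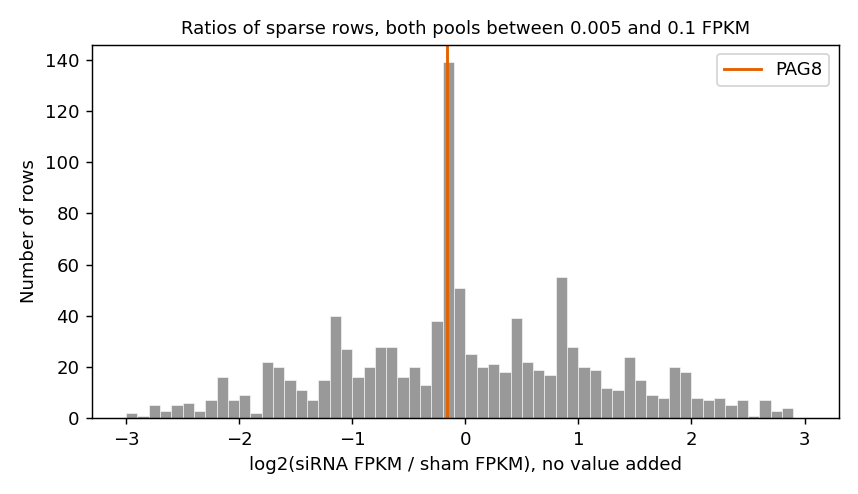
Number of rows (vertical) by log2 ratio of siRNA to sham FPKM without an added value (horizontal, intervals of 0.1), for the 1079 rows between 0.005 and 0.1 FPKM in both pools. The tallest bar holds 139 rows, and the orange line, which marks PAG8 at -0.16, runs through it.

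PAG1, the modern member, needed a check of position because a second bovine gene has the same symbol. The row on chromosome 29, from 40138420 to 40147749, lies among the other PAG genes and matches LOC281964 of RefSeq, which has PAG1 as a synonym. The row on chromosome 14, from 41344095 to 41361952, lies outside the cluster, on the chromosome where RefSeq places the unrelated gene with the symbol PAG1, and was kept out of the family. Both rows were listed at 0 in both pools.

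TKDP1 was the highest TKDP gene in both pools and differed in the opposite direction to PAG2. On chromosome 13 from 74787868 to 74804656, it was 1.34 FPKM in the siRNA pool and 0.431 FPKM in the sham pool, which is 3.10-fold higher. TKDP3 was 0.227 FPKM in the siRNA pool and listed at 0 in the sham pool. TKDP2 went the other way, listed at 0 in the siRNA pool against 0.0849 FPKM in the sham pool, and TKDP4 was at 0 in both. No TKDP value exceeded the 1.34 FPKM of TKDP1, and PAG2 exceeded TKDP1 by 23.6 times in the siRNA pool and 137 times in the sham pool. The number of fragments behind these TKDP values is not known, and with 1 library on each side the order of the pools for TKDP1 has no check.

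Summed over members, PAG was 33.1 FPKM in the siRNA pool and 63.0 FPKM in the sham pool, of which PAG2 accounted for 95.4% and 93.7%. The TKDP sum was 1.56 FPKM in the siRNA pool and 0.516 FPKM in the sham pool, of which TKDP1 made up 85.5% and 83.6%. After adding 1 FPKM to each pool, the log2 difference of siRNA to sham was -0.91 for the PAG sum and 0.76 for the TKDP sum. Each sum thus follows a single gene.

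Set against all genes, 2 of the 9 members averaged 1 FPKM or more over the pools, and many other genes were lowered as much in the siRNA pool. The log2 difference after adding 1 FPKM was -0.88 for PAG2 and -0.99 for PAG11, and 19.6% and 16.0% of the 7984 symbols above that mean were as low or lower. Neither member was 2-fold lower on this scale, where 15.7% of all such symbols were, and neither was 2-fold higher, where 4.92% were. None of the members differed by 4-fold, against 1.05% of symbols lower and 0.413% higher. The median difference of these 2 members was -0.94 and that of all 7984 symbols -0.17. TKDP1, with a mean of 0.884 FPKM just below the minimum, had a difference of 0.71 on the same scale. Adding 1 FPKM understates the change of low genes, which applies to TKDP1 and PAG11 more than to PAG2. Total FPKM was 1.05e+06 in the siRNA pool and 1.38e+06 in the sham pool. Scaled to the same total, the log2 difference was -0.50 for PAG2 and -0.74 for PAG11. On that scale the median of the same 7984 symbols was 0.16.

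**Figure D3:**
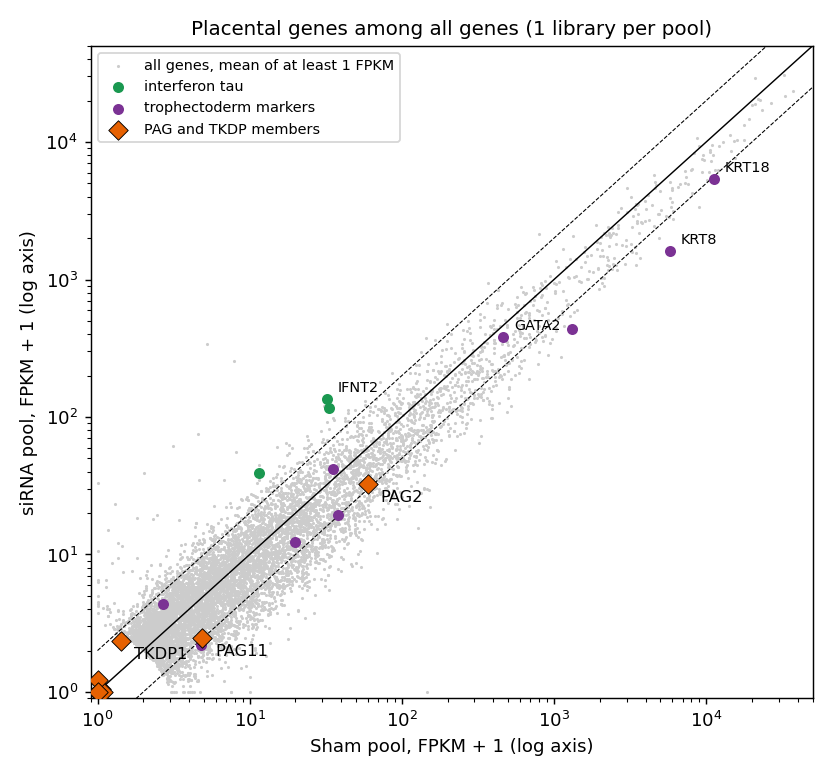
FPKM + 1 on log axes in the sham pool (horizontal) and the siRNA pool (vertical), 1 library each, for all genes averaging 1 FPKM or more (grey), the 9 PAG and TKDP genes (orange diamonds), interferon tau genes (green) and trophectoderm markers (purple). The solid line marks equal values and dashed lines 2-fold differences. PAG2 and PAG11 lie just inside the lower dashed line, and TKDP1 lies above the solid line. The 3 interferon tau genes lie above the upper dashed line, as do 4.92% of the grey genes.

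Across the wider families, counted by symbol, PAG2, PAG11 and TKDP1 were the only genes to reach 1 FPKM in either pool. Rows under other symbols inside the gene clusters may hold further copies and are not counted here. Of 15 PAG genes and 5 TKDP genes measured, 10 were listed at 0 in both pools, 6 had a value in 1 pool only and 4, PAG2, PAG8, PAG11 and TKDP1, had a value in both. The share at 0 in both pools was 50.0% of these 20 genes and 22.2% of the 9 members, against 25.6% of all 21209 symbols. All 5 ancient PAG genes measured had a value in at least 1 pool, PAG10 at 0.0920 FPKM in the siRNA pool and 0 in the sham pool. Of 10 modern PAG genes 9 were at 0 in both pools, and PAG21 was 0.0350 FPKM in the siRNA pool only. This division into ancient and modern genes was made after the values were seen. TKDP5 was 0.366 FPKM in the siRNA pool and at 0 in the sham pool. The list of prolactin-family hormones, which holds prolactin itself (PRL) beside hormones of placental binucleate cells, was near 0 as well. Of its 6 measured genes 4 were at 0 in both pools, against 25.6% of all 21209 symbols. Among these 4 were PRL, placental lactogen CSH2 and PRP1.

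PAG2 was the main transcript of a gene cluster with few others above 1 FPKM. Between the outermost PAG members, 2081 kb of chromosome 29 from 39117691 to 41199085 held 27 rows, of which 2, the PAG2 row and the PAG11 row that starts at 40581127, reached 1 FPKM in either pool. The PAG2 row carried 94.9% of the summed FPKM of this interval in the siRNA pool and 93.2% in the sham pool. Another 16 rows were at 0 in both pools, among them those of PAG3, PAG4 and PAG6. Within 500 kb outside the interval, 12 of 32 rows (37.5%) reached 1 FPKM. Of these 12 rows 10 were lower in the siRNA pool, as PAG2 was, and 2 higher, while 58.3% of all 7984 symbols were lower. The highest of the 12 was C29H11orf10, at 392.2 against 866 FPKM. All 32 flanking rows summed to 534 against 1050 FPKM, a 1.97-fold lower level in the siRNA pool. C29H11orf10 alone made up most of both sums, so this ratio mainly reflects 1 gene. The DNA repair gene DDB1, at 34.8 against 26.3 FPKM, was 1 of the 2 that were higher.

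The TKDP cluster gave a similar picture at a lower level. Between TKDP3 and TKDP2, 359 kb of chromosome 13 from 74509036 to 74867658 held 7 rows, of which only TKDP1 reached 1 FPKM in either pool. LOC618696, another row in this interval, was 0.883 FPKM in the siRNA pool and 0.370 FPKM in the sham pool, higher in the siRNA pool, as TKDP1 was. Within 500 kb outside, 18 of 44 rows (40.9%) reached 1 FPKM. Of these 18 rows, 17 were lower in the siRNA pool and 1 was higher, while 58.3% of all 7984 symbols were lower. TKDP1, inside the interval, was higher. The row with the highest value in the siRNA pool was UBE2C, a ubiquitin-conjugating enzyme of mitosis, at 352 against 493 FPKM, and in the sham pool LOC616039, at 259 against 532 FPKM.

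**Figure D4:**
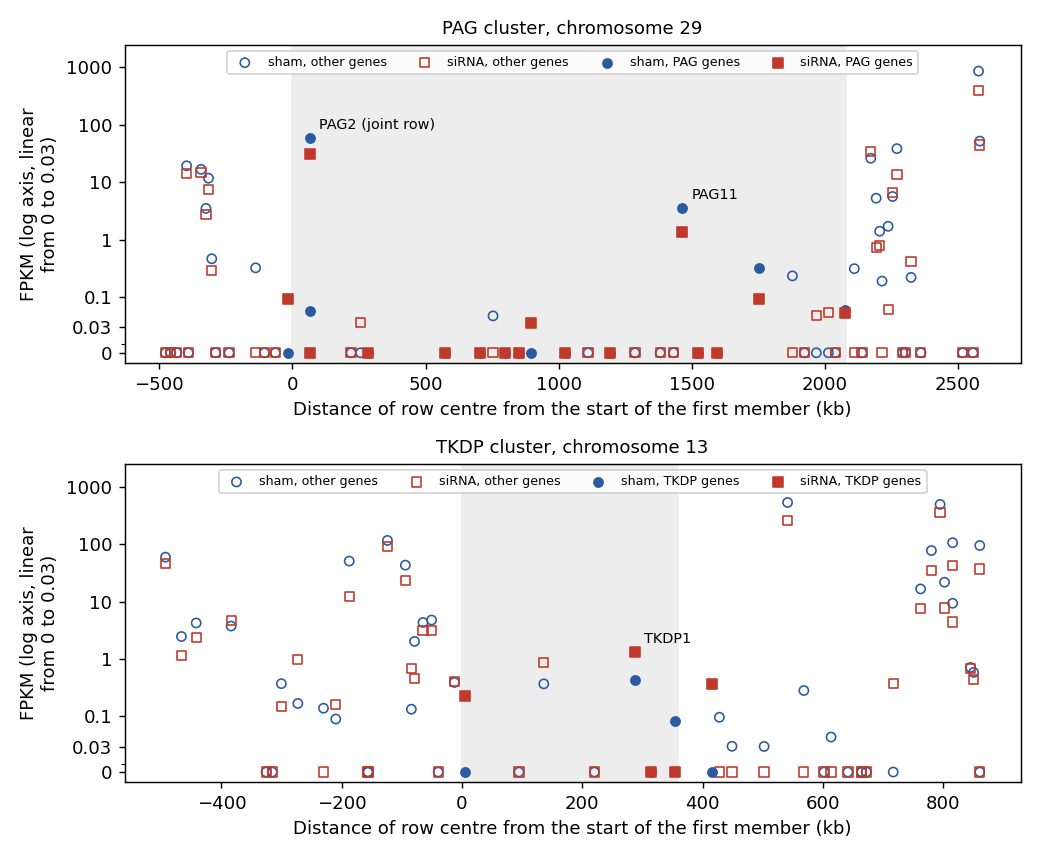
FPKM (vertical, log axis, linear between 0 and 0.03) of rows in the PAG cluster (top) and the TKDP cluster (bottom) by distance of the row centre from the start of the first member in kb (horizontal), in the sham pool (blue circles) and the siRNA pool (red squares). Filled symbols are PAG or TKDP genes, open symbols other genes, and shading covers the interval between the outermost members. In the shaded intervals only the PAG2, PAG11 and TKDP1 rows reach 1 FPKM, while many flanking genes lie above it.

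The trophectoderm, the layer in which ancient PAG genes are expressed, was represented in both pools. All 11 trophectoderm markers measured averaged 1 FPKM or more, as did 7984 of all 21209 symbols. They summed to 8137 FPKM in the siRNA pool and 18940 FPKM in the sham pool, dominated by keratins. Of the 11 markers, 7 were lower and 4 higher in the siRNA pool, while 58.3% of all 7984 symbols were lower. After adding 1 FPKM, 4 were at least 2-fold lower, against 15.7% of all 7984 symbols. IFNT2 and IFNT3 were the 2 at least 2-fold higher, against 4.92%. The keratin gene KRT18 was 5389 against 11245 FPKM and KRT8 was 1611 against 5760 FPKM. The transcription factor GATA2 was 379 FPKM in the siRNA pool and 461 FPKM in the sham pool. In pooled embryos, fewer cells of a type and less RNA per cell cannot be told apart, and the part of the trophectoderm share in the PAG2 difference was not tested.

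Relative to these genes PAG2 was higher or lower in the siRNA pool depending on the gene. PAG2 was 0.586% of KRT18 in the siRNA pool and 0.525% in the sham pool, and 1.96% against 1.02% of KRT8. Relative to GATA2 it was 8.33% in the siRNA pool and 12.8% in the sham pool. Scaled to the summed KRT8 and KRT18, the log2 difference of PAG2 turned from -0.88 to 0.37. On that scale the median of the same 7984 symbols rose from -0.17 to 0.93, so PAG2 lay below the median on both scales.

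Interferon tau, the signal by which the ruminant trophectoderm maintains pregnancy, differed in the opposite direction to PAG2, another secreted product of the same layer. IFNT2 was 135 against 31.1 FPKM, so that PAG2 was 23.5% of IFNT2 in the siRNA pool and 190% in the sham pool. Summed over 3 interferon tau genes the level was 289 FPKM in the siRNA pool and 73.8 FPKM in the sham pool. All 3 were at least 2-fold higher in the siRNA pool after adding 1 FPKM, against 4.92% of all 7984 symbols. Whether reads were divided among these 3 genes was not tested, so they are not read as 3 separate results.

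Factors known from reporter studies or expression to act on trophoblast genes went both ways. ETS2, an activator of trophoblast genes, was 2.02 FPKM in the siRNA pool and 2.37 FPKM in the sham pool. DLX3, a homeobox factor of the trophoblast, was 2.99 against 1.33 FPKM, and CDX2, a trophectoderm marker, was 1.19 against 3.76 FPKM. Of 11 such regulators averaging 1 FPKM or more, 6 were higher in the siRNA pool and 5 lower. Of all 7984 symbols, 41.7% were higher and 58.3% lower. After GATA2, the highest means among the regulators were those of TFAP2C, at 40.7 against 34.1 FPKM, and TEAD4, at 18.4 against 37.3 FPKM. CDX2 was the single regulator at least 2-fold different after adding 1 FPKM. It was lower, as were 15.7% of all 7984 symbols at that fold. The median log2 difference of the regulators was 0.25, and that of all 7984 symbols -0.17.

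Relatives of the PAG and TKDP proteins outside the placenta-specific families were also compared. The lysosomal aspartic proteinase CTSD, cathepsin D, was 11.8 FPKM in the siRNA pool against 53.6 FPKM in the sham pool, and all 3 aspartic proteinases that averaged 1 FPKM or more were lower in the siRNA pool, 2 of them at least 2-fold, where 58.3% and 15.7% of all 7984 symbols were. PGA5, the pepsinogen gene that neighbours the PAG cluster, was at 0 in the siRNA pool and 0.314 FPKM in the sham pool. Among Kunitz domain genes, SPINT2, an inhibitor of membrane serine proteases, was 52.0 against 160 FPKM, and APLP2, a relative of the amyloid precursor protein, was 74.5 against 51.3 FPKM. Of the 5 averaging 1 FPKM or more, 4 were higher in the siRNA pool and 1 was lower, where 41.7% of all 7984 symbols were higher. TFPI, counted as higher, was 10.5 against 10.2 FPKM. None of the 5 was at least 2-fold higher after adding 1 FPKM, against 4.92% of all 7984 symbols. SPINT2 was at least 2-fold lower, as were 15.7%. All 11 Kunitz domain genes measured summed to 141 FPKM in the siRNA pool against 225 FPKM in the sham pool.

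**Figure D5:**
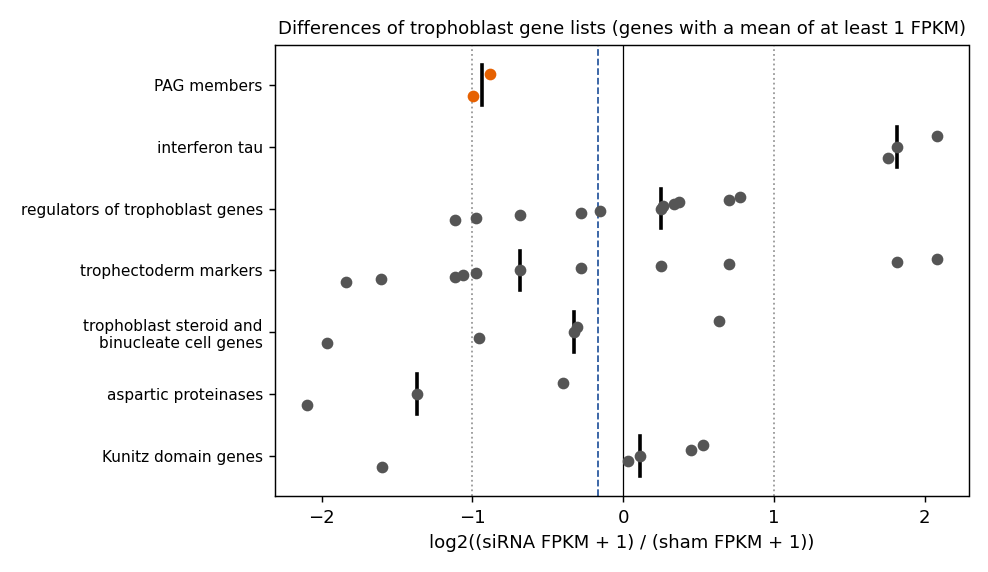
log2 ratio of siRNA to sham FPKM, each raised by 1 (horizontal) for genes of each list that average 1 FPKM or more (points), 1 library per pool. Short black bars are list medians, dotted lines mark 2-fold and the dashed blue line the median of all 7984 symbols at -0.17. PAG2 and PAG11 sit near -1, the 3 interferon tau genes between 1.76 and 2.08, and the regulators on both sides of 0.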

How the data were processed

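Total RNA of each embryo pool was amplified and sequenced by the authors, who aligned reads with TopHat to bosTau7. The deposited FPKM values are from Cufflinks 2.0.2 and were, by the authors' methods, scaled to the upper quartile and adjusted for sequence bias. The gene annotation is not given in the sources used here. Read numbers cannot be had from FPKM, and depth is unknown for both pools.

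Groups came from the sample titles. Rows without a symbol (615 of 22220) were left out, and rows with the same symbol were summed. The joint row of LOC519862 and PAG2 was counted as PAG2. Differences are log2 ratios of the siRNA to the sham pool with 1 FPKM added to both, for the 7984 symbols with a mean of at least 1 FPKM; fold values are ratios of FPKM. Members, lists and alternatives were chosen with earlier results of these data known. Every member is named; of other genes, up to 3 with the highest mean per list, up to 5 per cluster and those nearest to PAG2 in level. ETS2, DLX3, CDX2, DDB1, PAG3, PAG4, PAG6, PAG10, PAG21, KRT8, IFNT2, PGA5 and LOC618696 were in part chosen after their values were seen. RefSeq gene names (ARS-UCD2.0) matched 8 of 9 members, all but TKDP3, which is known here only by its symbol in the FPKM values. Member sequences were not used here. Python 3.11.15, pandas 2.3.3, NumPy 2.4.6 and matplotlib 3.10.9 were used.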

Additional observations from a re-analysis of the deposited data

How the results depend on the processing

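With 1 library per group no replicate could be left out, and the alternatives say nothing on the spread between embryo pools. No paired analysis was possible because each group has 1 library. Of 104 values recomputed, 82 kept their direction and stayed within 0.5 log2, or stayed within 1.5 times for counts. These 82 include counts of members at least 2-fold or 4-fold different that stayed at 0 and have no direction to keep. Scaling to KRT8 and KRT18, which are lower in the siRNA pool, moved or turned the most values: the log2 difference became 0.35 for the PAG sum, 0.37 for PAG2 and 0.092 for PAG8, -0.11 for PAG11, 1.57 for TKDP1 and 1.66 for the TKDP sum, and 1 member was then 2-fold higher, as were 46.2% of the 8984 symbols with a mean of at least 1 FPKM on that scale. With the median difference set to 0, PAG8 was 2.3e-04, and with the same total FPKM in both pools it was 0.014. The same total gave -0.50 for PAG2 and -0.52 for the PAG sum. With 0.1 FPKM added in place of 1, TKDP1 and the TKDP sum were both 1.43 or 1.44, TKDP3 was 1.71, TKDP2 -0.89 and PAG12 -0.66, and 1 member was 2-fold lower, as were 20.5% of all 7984 symbols; the shift of TKDP3 from 0.29 was the largest among the log2 differences. With 5 FPKM added, PAG11 was -0.46 and the TKDP sum 0.25. The number of members passing the mean was 9 without a filter, 1 at 5 FPKM and 1 with only exact symbols, which leaves out the joint row of PAG2, an alternative chosen after seeing the data. At 5 FPKM, 1 member was detected in each pool.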

Other observations

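Genes of steroid and prostaglandin synthesis in the trophoblast differed in both directions. HSD3B1, an enzyme of progesterone synthesis, was 3.29 FPKM in the siRNA pool and 15.7 FPKM in the sham pool, whereas PTGS2, the inducible prostaglandin synthase, was 26.9 against 16.9 FPKM and PTGES, which makes prostaglandin E2, was 4.56 against 9.81 FPKM. Of 5 such genes averaging 1 FPKM or more, 1 was higher in the siRNA pool and 4 were lower, against 58.3% of all 7984 symbols lower. Markers of other cell layers were present beside the PAG genes. The 9 epiblast markers measured summed to 260 FPKM in the siRNA pool against 400 FPKM in the sham pool. The 9 hypoblast markers summed to 41.3 against 39.3 FPKM, with SOX17 listed at 0 in both pools. The 10 cumulus and granulosa markers summed to 8.81 against 8.76 FPKM, with PTX3, AMH and FOXL2 at 0 in both. The part of these cells in the PAG and TKDP values was not tested.

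In level over the 2 pools, the genes nearest to PAG2 were POLDIP2 at 32.0 FPKM in the siRNA pool and 59.4 FPKM in the sham pool, MYBL2 at 31.8 against 60.0 FPKM, and IDH3B at 30.7 against 61.5 FPKM. Their distances from PAG2 on log2 of FPKM + 1 were 0.019, 0.025 and 0.070.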
